A study of Rattus norvegicus with 12 samples.

Results

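Collagens are secreted or membrane proteins whose chains wind around each other in a triple helix, and each chain is the product of its own gene. The collagen chains described here are the rat genes named Col, a type number, a and a chain number, taken from the gene annotation of the array. Of 31042 probe sets on the array that are not controls, 58 were assigned to a collagen chain alone, and these stood for 41 of 14217 genes. The class lists held 45 collagen genes, and Col21a1, Col28a1, Col4a3 and Col6a4 had no probe set assigned to them alone. Where a gene had several probe sets, as 14 of the 41 did, the brightest on average stood for it. A probe set was tested where at least 3 of the 12 arrays read above the 40th percentile of their own values, and 30 collagen genes of 11218 genes passed. The 11 that did not pass were Col2a1, Col4a4, Col6a6, Col10a1, Col13a1, Col17a1, Col19a1, Col20a1, Col24a1, Col25a1 and Col26a1.

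The arrays compared neural stem cell cultures from the spinal cord and the brain of Sprague Dawley rats at postnatal days 3 to 5. Each of 4 groups had 3 arrays: differentiated spinal cord cultures, proliferative spinal cord cultures, differentiated brain cultures and proliferative brain cultures. All groups came from the same strain and age range, and no allele or agent was named for any of them. The sources used here do not give the way or the time of differentiation. They also do not tell whether the 3 arrays of a group are separate cultures or animals, so a p-value stands only for the spread among these arrays, which may be technical.

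Fibrillar collagens assemble into the fibres that give connective tissue its strength, type IV collagen forms the sheet of the basement membrane, and other classes decorate fibrils, form hexagonal or beaded networks, or stay anchored in the cell membrane. In the central nervous system fibrillar collagen lies mainly in the meninges and around vessels, whereas neural tissue itself holds little. Chains of 1 type are built together, so that, for example, the Col1a1 and Col1a2 products form type I collagen, and Col4a1 and Col4a2 lie head to head and share a promoter region.

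Values are the authors' log2 signals, and 1 unit is a 2-fold difference. The 40th percentile of an array lay between 5.91 and 6.41, and a group whose 3 arrays all read under their own percentile is called dim. A fold against a dim group is given as a lower bound, the mean of the brighter group over the mean of those percentiles. Arrays of a group correlated with r between 0.930 and 0.948 over all probe sets, and arrays of different groups with r between 0.845 and 0.909. The label of the cultures was set against marker lists. Of 11 neural stem and progenitor markers measured, 9 were above the dim limit on at least 1 array in each spinal cord group. The number was 10 in differentiated and 9 in proliferative brain cultures. Sox1 was dim in all 4 groups and Hes5 in all but differentiated brain. Of the 10 tested, 5 rose and 2 fell in brain differentiation, where 24.1% and 28.5% of all tested genes did. In spinal cord 1 rose and 6 fell, where 20.9% and 22.6% did. The summed linear signal of the 11 was 67330 to 78580 in differentiated and 55729 to 66965 in proliferative brain cultures. In spinal cord it was 42083 to 44159 and 45034 to 48631. All 15 fibroblast and meninges markers, among them Dcn and Lum, were above the dim limit on at least 1 array in differentiated spinal cord cultures. By the same measure the number was 13 in proliferative spinal cord cultures, against 6 in differentiated and 7 in proliferative brain cultures. The first proliferative spinal cord array was the lowest of its 3 for 17 of the 30 tested collagen chains (56.7%), against 38.6% of all tested genes. Its summed linear signal of these fibroblast markers was the lowest of that group, 17846, against 33754 and 30652. So was its sum of astrocyte markers, 23043, against 40811 and 36263, and those of neural stem and oligodendrocyte lineage markers (45034 and 55259). Its sum of microglia markers was the highest of that group, 6182.3, against 3261.7 and 3829.2. The second array of that group was the lowest for 2 chains. The first proliferative brain array was the lowest of its 3 for 16 chains (53.3%), against 27.1% of all tested genes.

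The first comparison asks how collagen chains differ between spinal cord and brain cultures of the same state. In differentiated cultures 19 of the 30 tested chains were higher in spinal cord than in brain and 4 were lower, where 22.3% and 22.4% of all 11218 tested genes were called higher and lower. In proliferative cultures 21 chains were higher and 2 were lower in spinal cord, against 21.2% and 22.8% of all tested genes. The 21 were 17 without the first proliferative brain array, 20 without the first and 17 without the second proliferative spinal cord array. In differentiated cultures the chains of type I, III and VIII collagen had the widest gaps, and Col4a5 and Col4a6 were lower in spinal cord in both states. The median log2 difference of the tested chains was 2.46 in differentiated cultures and 1.50 in proliferative cultures, against 0.00 and -0.04 over all genes. With each value under its array's percentile set at that percentile, the collagen medians were 2.19 and 1.40. In these bulk samples fewer cells of a type and less RNA per cell cannot be told apart. Calls are at an adjusted p under 0.05 from limma over all 20834 tested probe sets.

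The filter itself favours chains that are high in some group. Col6a5 and Col8a2 passed through spinal cord arrays alone, and Col4a6 and Col11a2 through brain arrays alone. Of the tested chains, 13 were above the percentile on all 12 arrays. Among these 13, spinal cord exceeded brain for 10 chains and was lower for 2 in differentiated cultures, against 20.6% and 22.5% of the 8830 genes above it on all arrays. In proliferative cultures 10 of the 13 were higher and 1 was lower in spinal cord, against 18.6% and 26.2% of those genes. With differentiation 9 of the 13 rose and 2 fell in spinal cord, against 21.2% and 23.1% of those genes, and 7 rose and 2 fell in brain, against 23.4% and 32.2%. The difference of the responses was positive for 6 and negative for 3, against 26.1% and 20.9%.

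**Figure D1:**
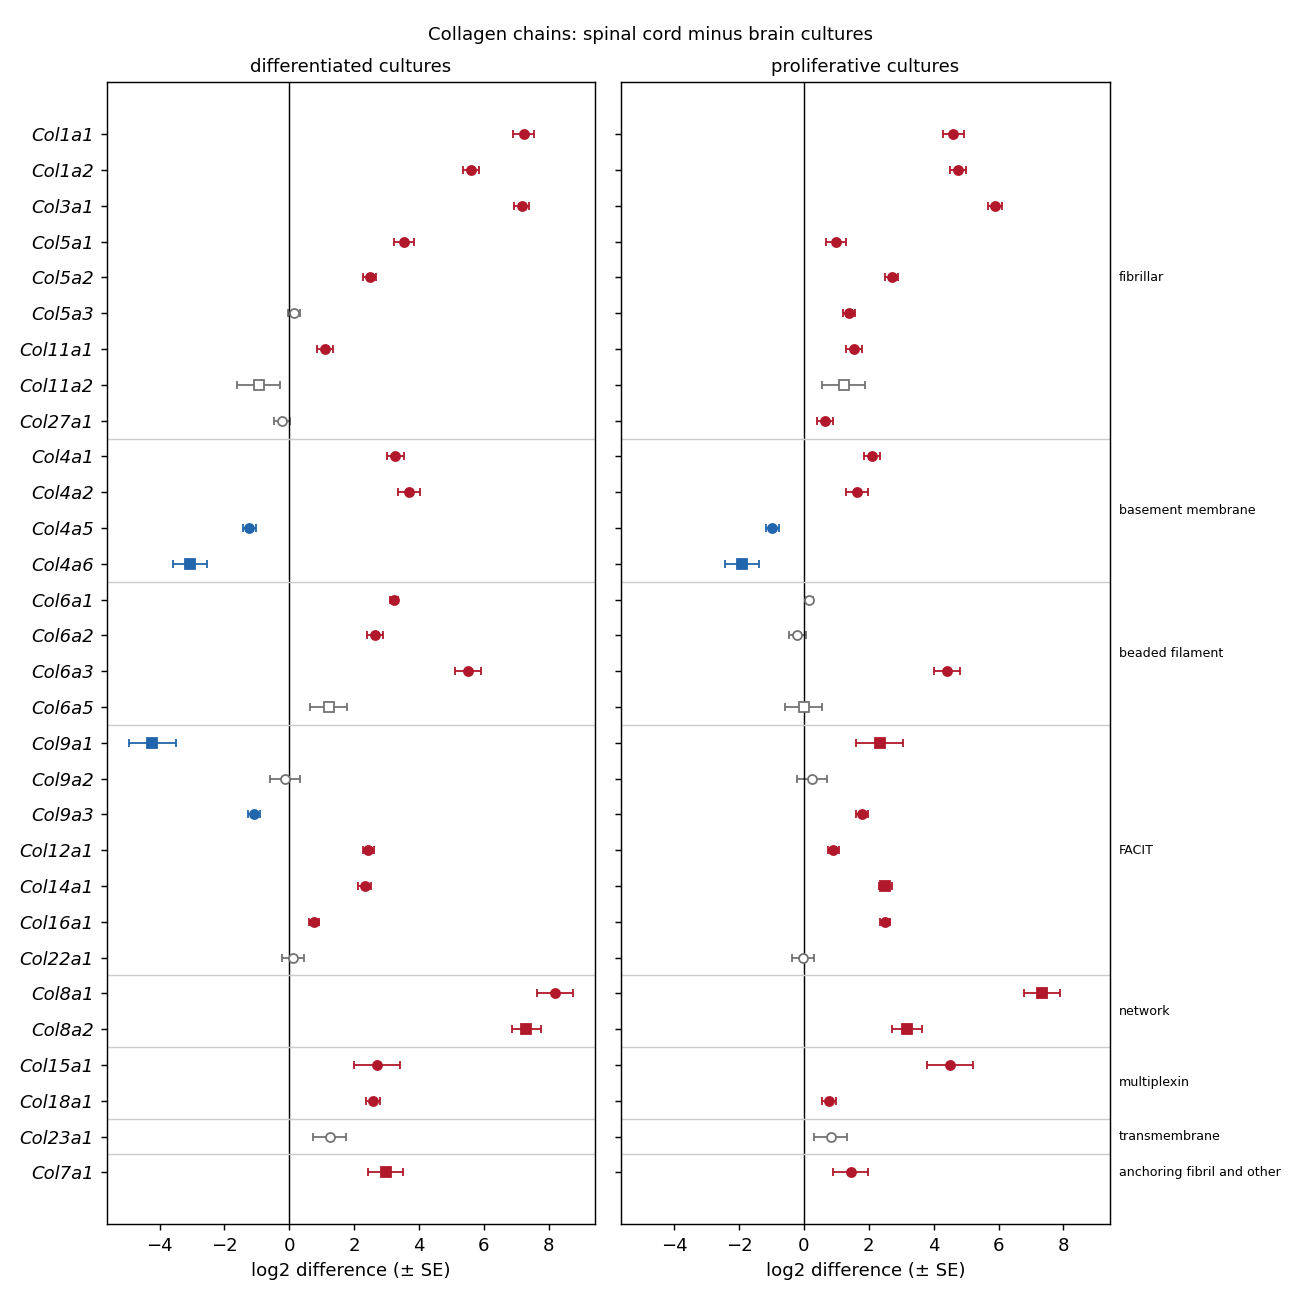
Log2 difference (± SE) between spinal cord and brain cultures for the 30 tested chains, in differentiated cultures on the left and proliferative cultures on the right, ordered by collagen class. Red and blue points were called higher and lower in spinal cord at an adjusted p under 0.05, open grey points were not called, and squares mark contrasts with a dim group. Col1a1, Col3a1, Col8a1 and Col8a2 stand farthest to the right in differentiated cultures, and Col4a5 and Col4a6 lie left of 0 in both panels.

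Differentiation was compared within each tissue. In spinal cord cultures 15 of the 30 tested chains rose and 4 fell, against 20.9% and 22.6% of all tested genes. The count of rises includes Col6a5, which passed the filter through differentiated spinal cord arrays alone, and the brain count includes Col11a2, which passed through differentiated brain arrays alone. In brain cultures 11 chains rose and 4 fell, against 24.1% and 28.5% of all tested genes. Col1a2, Col4a5, Col5a2, Col11a1, Col12a1 and Col14a1 rose in both tissues, and no chain fell in both. The tissues took opposite directions for Col6a2, which rose in spinal cord and fell in brain, and for Col9a1 and Col9a3, which fell in spinal cord and rose in brain. Col6a3, Col9a2, Col15a1, Col22a1 and Col23a1 were called in neither tissue. The shares of all tested genes with the same joint patterns over both tissues were not counted, so these names only describe the chains. The median log2 change was 1.11 in spinal cord and 0.76 in brain (0.90 and 0.21 with values under the percentile set at it), against -0.04 and -0.06 over all genes.

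A direct test of the difference of the responses, the log2 change of spinal cord minus that of brain, was positive for 10 chains and negative for 4, against 23.7% and 21.2% of all tested genes. Col1a1, Col3a1, Col4a1, Col4a2, Col5a1 and Col8a2 rose in spinal cord, were not called in brain, and had a positive difference. Col6a1 and Col18a1, which fell in brain and were not called in spinal cord, and Col6a2 also had a positive difference, as did Col12a1. The 4 negative differences belonged to Col5a3, Col9a1, Col9a3 and Col16a1. Differences not called with all arrays passed the test without 1 array for several chains. Besides Col1a2, Col4a5 and Col6a3, given with their genes, these were Col11a1 (-0.83) without the first and Col4a6 (-1.82) without the third proliferative spinal cord array, Col8a1 (1.66) without the first and Col7a1 (2.32) without the second differentiated brain array, and Col11a2 (-2.73) without the second proliferative brain array. Col15a1 passed without the third proliferative brain or the first proliferative spinal cord array (-2.76 and -2.52), and Col27a1 without the second differentiated or the first proliferative spinal cord array (-1.05 and -1.04). With values set at the percentile the test was also passed by Col8a1 (1.70), Col23a1 (0.97) and Col14a1 (0.75), and, with negative differences, by Col4a6 (-1.90), Col7a1 (-0.92) and Col27a1 (-0.84). With a pseudocount of 64 it was passed by Col1a2 (1.25) and Col8a1 (1.55), and by Col4a6, Col11a2 and Col27a1 (-1.11, -0.77 and -0.57).

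**Figure D2:**
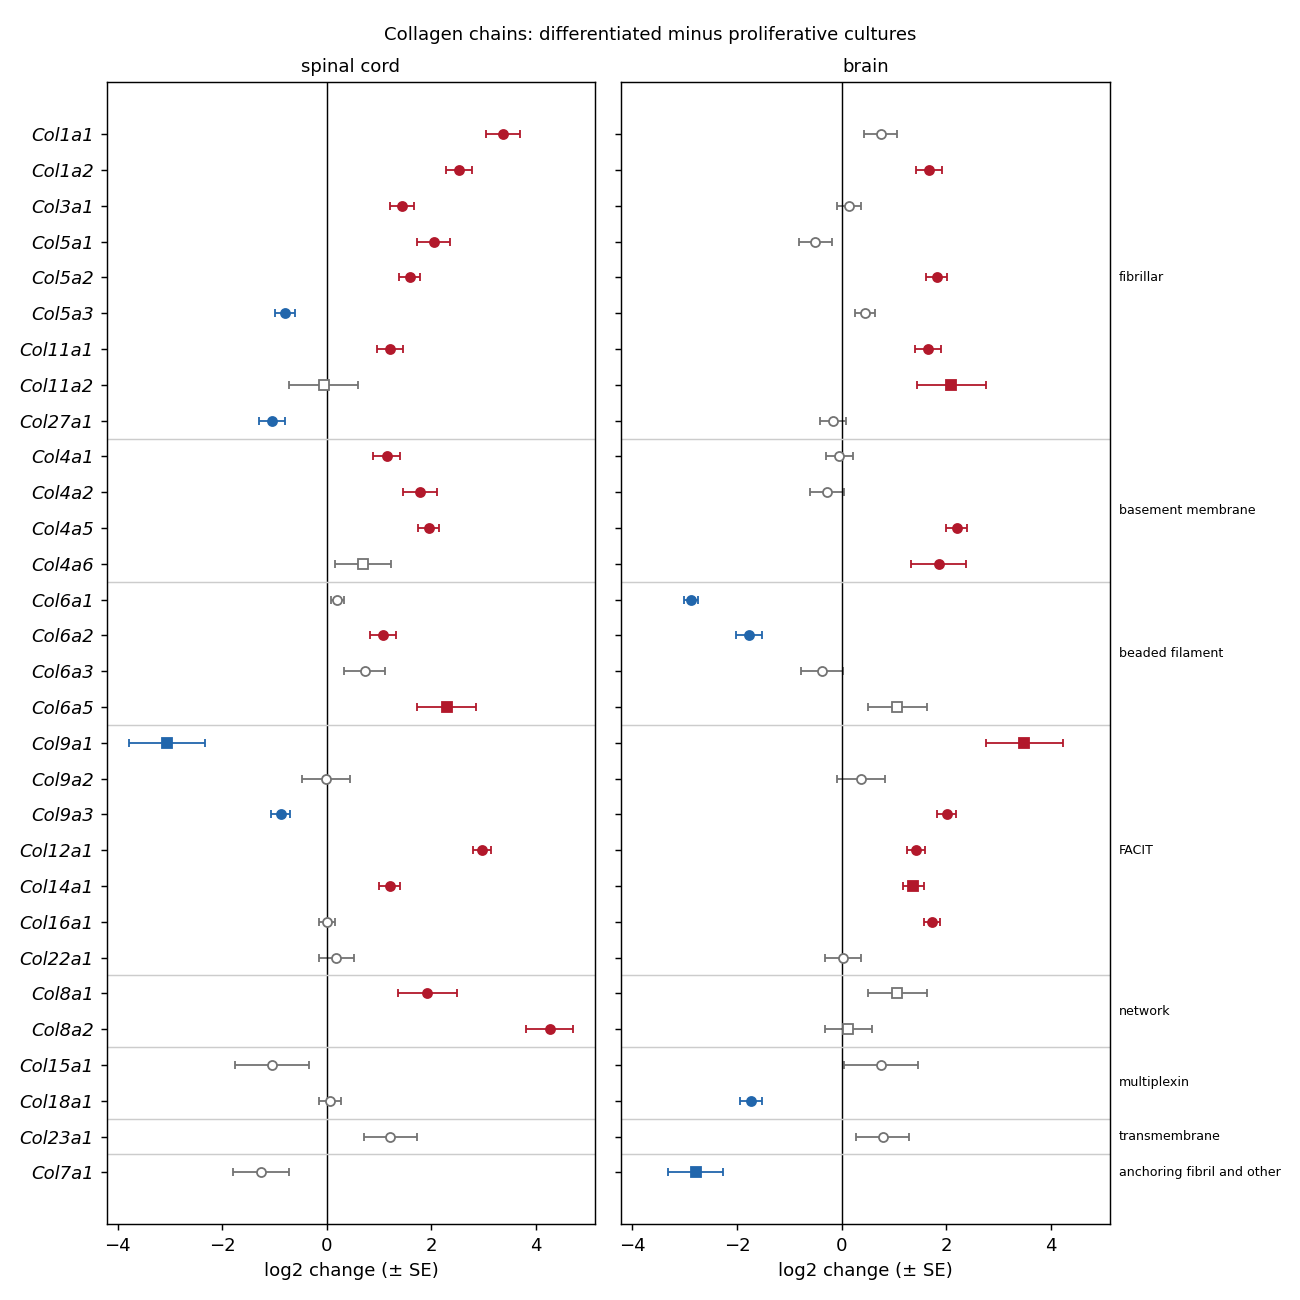
Log2 change (± SE), differentiated minus proliferative cultures, for the 30 tested chains, in spinal cord on the left and brain on the right, ordered by collagen class. Red and blue points rose and fell at an adjusted p under 0.05, open grey points were not called, and squares mark contrasts with a dim group. Col8a2 and Col1a1 changed most among the chains that rose in spinal cord, where Col9a1 fell, while in brain Col9a1 rose and Col6a1 fell.

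Differentiated spinal cord was the group with the highest mean for 20 of the 30 tested chains, and for 15 of them all 3 of its arrays lay above every other array. Over all tested genes these shares were 25.8% and 13.5%. Differentiated brain was highest for 6 chains and proliferative spinal cord for 4, against 22.5% and 18.2% of all tested genes. Proliferative brain was highest for none and lowest for 16, against 33.5% and 26.0% of all tested genes.

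Fibrillar chains form the largest class on the array. In spinal cord differentiation 6 of 9 tested fibrillar chains rose and 2 fell, where 20.9% and 22.6% of all tested genes did. In brain differentiation 4 rose and none fell, where 24.1% and 28.5% did. Spinal cord exceeded brain for 6 fibrillar chains in differentiated and for 8 in proliferative cultures, against 22.3% and 21.2% of all tested genes. Type I collagen, the main collagen of skin, bone and scar, is made from Col1a1 and Col1a2 products.

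Col1a1 read 13.81, 13.74 and 13.68 in differentiated spinal cord cultures, against 9.55, 11.09 and 10.48 in proliferative ones. Brain values were 6.60, 6.41 and 6.56 in differentiated cultures, against 5.85, 5.14 and 6.32 in proliferative cultures. The 4 groups did not overlap, and every spinal cord array lay above every brain array. Col1a1 rose 10.3-fold with differentiation in spinal cord (log2 change 3.37 ± 0.32 SE, adjusted p = 2.89e-06), and in brain the log2 change of 0.75 ± 0.32 was not called (adjusted p = 0.0732). The brain change was called without the third proliferative brain array (1.03, adjusted p = 0.0241) and without the first or the second proliferative spinal cord array (adjusted p = 0.0172 and 0.036). Differentiated spinal cord read 149-fold above differentiated brain, and proliferative spinal cord 24.3-fold above proliferative brain (adjusted p = 1.63e-09 and 1.76e-07). On the log2 scale these differences were 7.22 and 4.60, and with a pseudocount of 64 they were 6.46 and 3.54. With the mean of both probe sets they were 8.47 and 5.78. The other probe set was dim in both brain groups, so these larger values rest on readings below the dim limit. For that probe set spinal cord was at least 107-fold above brain in differentiated and at least 14.8-fold in proliferative cultures.

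Col1a2 read 14.20, 14.10 and 13.90 in differentiated spinal cord cultures, against 10.70, 12.04 and 11.86 in proliferative ones. Brain values were 8.51, 8.41 and 8.44 in differentiated cultures, against 6.64, 6.89 and 6.81 in proliferative cultures. Again no groups overlapped, in the same order as for Col1a1. The rise with differentiation was 5.78-fold in spinal cord (adjusted p = 3.61e-06) and 3.2-fold in brain (adjusted p = 0.000102). The difference between these responses was 0.85 ± 0.35 on the log2 scale and was not called (adjusted p = 0.07), whereas for Col1a1 it was 2.62 ± 0.46 (adjusted p = 0.000498). Only some of the probe sets of each of these genes were called for that difference. Without the first, the second or the third proliferative spinal cord array, the Col1a2 difference was called, at 0.44, 1.11 and 1.02, and so it was with median centring and with the mean of probe sets (1.09 and 1.02).

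Type III collagen, made of Col3a1 chains alone, is the collagen of soft, extensible tissue. Col3a1 read 14.87, 14.74 and 14.57 in differentiated spinal cord cultures, against 12.92, 13.63 and 13.33 in proliferative ones, and the groups did not overlap. Brain values were 7.87, 7.10 and 7.71 in differentiated cultures, against 6.95, 7.72 and 7.54 in proliferative cultures, and these overlapped. It rose 2.71-fold in spinal cord (adjusted p = 0.00023), and the change in brain was 0.15 ± 0.23 (adjusted p = 0.619). Spinal cord exceeded brain 144-fold in differentiated cultures (adjusted p = 2.11e-10) and 59.1-fold in proliferative cultures (adjusted p = 8.54e-10).

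Type V and type XI chains sit inside fibrils and help set their width. Col5a2 read 13.80, 13.62 and 13.64 in differentiated spinal cord cultures, against 11.56, 12.67 and 12.09 in proliferative ones. Brain values were 11.21, 11.19 and 11.23 in differentiated cultures, against 9.35, 9.19 and 9.64 in proliferative cultures. None of these groups overlapped. Col5a2 rose 2.99-fold in spinal cord (adjusted p = 3.53e-05) and 3.53-fold in brain (adjusted p = 8.37e-06), and the difference of -0.24 ± 0.29 between the responses was not called (adjusted p = 0.544). Col11a1 read 11.26, 11.26 and 11.29 in differentiated spinal cord cultures, against 9.30, 10.46 and 10.43 in proliferative ones. Brain values were 10.16, 10.17 and 10.18 in differentiated cultures, against 8.23, 8.88 and 8.43 in proliferative cultures, and the states did not overlap in either tissue. It rose in both, 2.31-fold in spinal cord and 3.16-fold in brain (adjusted p = 0.00153 and 0.000102). In spinal cord, and between the tissues in both states, only some of its 3 probe sets were called, and with the mean of its probe sets the spinal cord rise was 0.99 with adjusted p = 0.119.

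Col5a1, the partner of Col5a2 in the common form of type V collagen, read 11.58, 11.43 and 11.45 in differentiated spinal cord cultures, against 8.71, 10.29 and 9.36 in proliferative ones. Brain values were 8.23, 7.95 and 7.65 in differentiated cultures, against 8.08, 8.34 and 8.93 in proliferative cultures. The states overlapped in brain but not in spinal cord. Col5a1 rose 4.11-fold in spinal cord (adjusted p = 0.000169). In brain its log2 change was -0.50 ± 0.31 (adjusted p = 0.211), and the difference of the responses was 2.54 ± 0.44 (adjusted p = 0.000482). Proliferative spinal cord exceeded proliferative brain 2-fold (adjusted p = 0.0221), although the groups overlapped. That call was lost without the first or second proliferative brain array (adjusted p = 0.091 and 0.0623), without the second proliferative spinal cord array (adjusted p = 0.0972), and with arrays centred on their medians (adjusted p = 0.0673).

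Col5a3, a further type V chain, went the other way in spinal cord. It read 9.17, 9.50 and 9.34 in differentiated spinal cord cultures, against 10.45, 10.09 and 9.87 in proliferative ones, a 1.74-fold fall (adjusted p = 0.00375). Brain values were 9.27, 9.19 and 9.13 in differentiated cultures, against 8.87, 8.31 and 9.05 in proliferative cultures, a change of 0.45 ± 0.19 (adjusted p = 0.0635). Neither pair overlapped. Without the third proliferative brain array, or without the first proliferative spinal cord array, the brain change passed the test (adjusted p = 0.0217 and 0.0382). The responses differed by -1.25 ± 0.26 (adjusted p = 0.00191).

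Col27a1, a fibrillar chain known from cartilage, also fell in spinal cord. Its values were 5.98, 6.63 and 6.28 in differentiated spinal cord cultures, against 7.04, 7.46 and 7.54 in proliferative ones, a 2.07-fold fall (adjusted p = 0.00388). Of the differentiated spinal cord arrays, 2 read under their percentile. Brain values were 6.60, 6.48 and 6.50 in differentiated cultures, against 6.57, 6.87 and 6.63 in proliferative cultures, and they overlapped. The call that proliferative spinal cord exceeded proliferative brain (adjusted p = 0.049) was lost under median centring, quantile normalization and no filter (adjusted p = 0.145, 0.152 and 0.0937). It was also lost without any of 9 of the 12 single arrays, at adjusted p between 0.0557 and 0.156.

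Col11a2, which joins Col11a1 in cartilage fibrils, read 6.41, 6.35 and 6.62 in differentiated brain cultures, against 5.17, 5.50 and 2.41 in proliferative brain cultures. Spinal cord values were 5.15, 5.71 and 5.69 in differentiated cultures, against 5.97, 5.56 and 5.20 in proliferative cultures, and both groups were dim. Differentiated brain was the only group above the limit, at least 1.28-fold over proliferative brain (adjusted p = 0.0189). The call was lost without the third differentiated brain array (adjusted p = 0.0582) and with values set at the percentile (adjusted p = 0.0563), and without the third proliferative brain array the log2 change was 1.13. The cartilage collagen Col2a1, at 4.19 to 5.95 over the 12 arrays, and Col24a1, at 0.48 to 4.58, did not pass the filter.

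**Figure D3:**
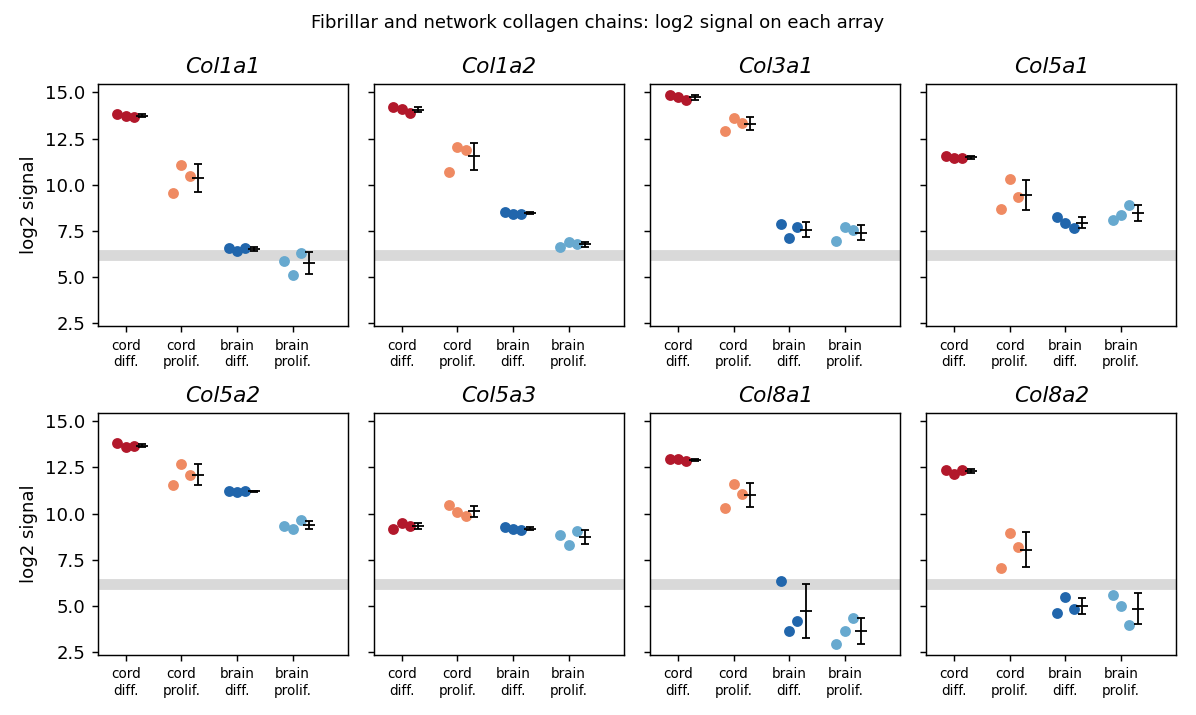
Log2 signal on each of the 12 arrays for 6 fibrillar chains and both type VIII network chains, with groups running from differentiated spinal cord to proliferative brain. Points are arrays, the black mark is the mean with its SD (n = 3), and the grey band spans the 40th percentiles of the arrays. Col1a1 reads 13.81, 13.74 and 13.68 in differentiated spinal cord and between 5.14 and 6.60 on the brain arrays, while Col5a3 is highest in proliferative spinal cord.

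Type VIII collagen forms hexagonal networks, as in the inner layer of the cornea, and Col8a1 and Col8a2 were the tested network chains. Both rose in spinal cord and neither was called in brain. Col8a2 read 12.36, 12.17 and 12.39 in differentiated spinal cord cultures, against 7.06, 8.93 and 8.17 in proliferative ones, a 19.1-fold rise (adjusted p = 6.17e-06). Brain values were 4.65, 5.49 and 4.86 in differentiated cultures, against 5.62, 5.02 and 3.96 in proliferative cultures, and both groups were dim. Differentiated spinal cord was at least 64.3-fold above differentiated brain (adjusted p = 2.49e-08), and proliferative spinal cord at least 3.85-fold above proliferative brain (adjusted p = 9.19e-05).

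Col8a1 read 12.94, 12.95 and 12.86 in differentiated spinal cord cultures, against 10.30, 11.60 and 11.09 in proliferative ones. Brain values were 6.36, 3.63 and 4.19 in differentiated cultures, against 2.96, 3.67 and 4.35 in proliferative cultures, and the second of these groups was dim. The rise in spinal cord was 3.78-fold (adjusted p = 0.0141), and without the first proliferative spinal cord array it was 1.57 on the log2 scale and not called (adjusted p = 0.0515). Proliferative spinal cord was at least 29.7-fold above proliferative brain (adjusted p = 3.49e-07). The log2 difference between differentiated spinal cord and differentiated brain was 8.19 ± 0.56 (adjusted p = 6.92e-08). It was 6.59 with values set at the percentile, which touched the lower brain arrays, and 9.0 without the first differentiated brain array. Without the second differentiated brain array, Col8a1 was called up in brain differentiation (1.62, adjusted p = 0.0323). The growth plate collagen Col10a1 read 4.94, 5.45 and 4.84 in differentiated and 4.69, 5.17 and 3.37 in proliferative spinal cord, and 2.18, 5.33 and 5.66 in differentiated and 1.89, 5.33 and 2.96 in proliferative brain, and was not tested.

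Basement membrane chains split into the Col4a1 and Col4a2 pair and the Col4a5 and Col4a6 pair. The Col4a1 and Col4a2 products form the type IV collagen found in nearly all basement membranes, and their genes are read away from each other. RefSeq's promoter windows of the GRCr8 build, each from 250 bases before to 50 bases after the gene's start, covered 32 of the 41 genes. The start sites of Col4a1 and Col4a2 lay 77 bases apart on opposite strands of chromosome 16, and their windows shared 176 bases. Both windows are shown because the pair had the same call in each of the 5 comparisons, and that of Col1a2 because this fibrillar chain rose in both tissues. Col4a1 lies at chr16:84885347-84885646 on the plus strand, Col4a2 at chr16:84885471-84885770 on the minus strand, and Col1a2 at chr4:33518307-33518606 on the plus strand. Capitals mark the CCAAT box, the TATAAA motif of TATA promoters and the GGGCGG motif known from Sp1 sites, searched on both strands, so that a motif on the other strand shows as its reverse complement. No marked motif overlaps another.
Col4a1: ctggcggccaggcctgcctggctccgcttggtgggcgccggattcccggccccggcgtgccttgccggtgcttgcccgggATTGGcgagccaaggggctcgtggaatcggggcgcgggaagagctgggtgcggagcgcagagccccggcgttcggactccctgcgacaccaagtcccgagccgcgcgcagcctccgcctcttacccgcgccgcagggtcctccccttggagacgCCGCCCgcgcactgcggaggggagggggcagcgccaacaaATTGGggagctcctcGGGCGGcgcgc
Col4a2: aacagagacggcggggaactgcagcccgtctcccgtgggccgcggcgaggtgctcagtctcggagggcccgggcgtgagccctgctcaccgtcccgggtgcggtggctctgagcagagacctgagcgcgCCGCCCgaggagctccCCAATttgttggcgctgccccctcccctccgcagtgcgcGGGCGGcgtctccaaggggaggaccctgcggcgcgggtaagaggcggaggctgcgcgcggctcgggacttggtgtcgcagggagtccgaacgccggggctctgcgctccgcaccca
Col1a2: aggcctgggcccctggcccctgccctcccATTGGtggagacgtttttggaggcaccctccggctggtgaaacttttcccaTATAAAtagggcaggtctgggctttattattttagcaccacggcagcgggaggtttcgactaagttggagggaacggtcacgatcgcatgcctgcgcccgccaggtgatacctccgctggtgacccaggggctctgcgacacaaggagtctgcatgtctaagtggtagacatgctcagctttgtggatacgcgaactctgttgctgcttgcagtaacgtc
The Col4a1 window held 2 CCAAT and 2 GGGCGG motifs and no TATAAA, the Col4a2 window 1 CCAAT and 2 GGGCGG and no TATAAA, and the Col1a2 window 1 CCAAT, 1 TATAAA and no GGGCGG. All motifs marked in the Col4a2 window lie in the 176 shared bases. They are the same sites as in the Col4a1 window, read on the other strand, and are counted in each window. Over the 32 collagen windows CCAAT was found in 28.1%, TATAAA in 12.5% and GGGCGG in 56.2%, against 37.5%, 14.2% and 33.1% of all 33469 windows. The sets are unlike, since each collagen gene gave 1 window. The 33469 were not limited to genes of the array or to 1 window per gene. Motif matches describe letters in the window and not factor binding.

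Col4a1 read 12.55, 12.39 and 12.49 in differentiated spinal cord cultures, against 10.52, 11.93 and 11.57 in proliferative ones. Brain values were 8.93, 9.31 and 9.38 in differentiated cultures, against 9.16, 9.23 and 9.34 in proliferative cultures. The spinal cord groups did not overlap each other or the brain, and the brain groups overlapped. Col4a1 rose 2.2-fold in spinal cord (adjusted p = 0.00296), and its log2 change in brain was -0.04 ± 0.26 (adjusted p = 0.925). The difference of the responses, 1.17 ± 0.36 (adjusted p = 0.019), was 1.04 without the first differentiated brain array and just missed the threshold (adjusted p = 0.05).

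Col4a2 read 10.77, 10.80 and 10.64 in differentiated spinal cord cultures, against 8.73, 9.47 and 8.68 in proliferative ones, a 3.42-fold rise (adjusted p = 0.000733). Brain values were 6.15, 7.82 and 7.17 in differentiated cultures, against 7.55, 7.36 and 7.06 in proliferative cultures. The brain groups overlapped, and their log2 change was -0.28 ± 0.33 (adjusted p = 0.516). The responses differed by 2.06 ± 0.47 (adjusted p = 0.00307). In differentiated cultures spinal cord exceeded brain 9.65-fold for Col4a1 and 12.9-fold for Col4a2, and in proliferative cultures 4.28-fold and 3.11-fold.

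Col4a5 and Col4a6 chains form a more restricted type IV collagen, and in humans loss of Col4a5 causes the kidney disease Alport syndrome. Their genes also lie head to head, on chromosome X with 1415 bases between the start sites and windows that share 0 bases. Col4a5 read 10.24, 10.02 and 10.25 in differentiated spinal cord cultures, against 8.52, 8.50 and 7.65 in proliferative ones. Brain values were 11.22, 11.45 and 11.55 in differentiated cultures, against 9.23, 9.04 and 9.35 in proliferative cultures. No groups overlapped. With differentiation the signal rose 3.86-fold in spinal cord (adjusted p = 4.29e-06) and 4.6-fold in brain (adjusted p = 1.15e-06). Spinal cord was 2.35-fold lower than brain in differentiated cultures and 1.98-fold lower in proliferative cultures (adjusted p = 0.000184 and 0.00147). The responses differed by -0.25 ± 0.28 (adjusted p = 0.501), and without the third proliferative spinal cord array by -0.54 (adjusted p = 0.0336).

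Col4a6 read 5.75, 5.12 and 4.27 in differentiated spinal cord cultures, against 5.38, 4.62 and 3.05 in proliferative ones, and both groups were dim. Brain values were 8.20, 8.22 and 7.92 in differentiated cultures, against 6.29, 6.05 and 6.41 in proliferative cultures, a 3.64-fold rise with no overlap (adjusted p = 0.0107). Differentiated spinal cord was at least 3.61-fold lower than differentiated brain (adjusted p = 0.000378). In proliferative cultures the brain mean did not exceed the spinal cord limit, so no bound is given for the log2 difference of -1.90 ± 0.53 (adjusted p = 0.0123), which was -1.25 without the third proliferative spinal cord array and 0.05 with values set at the percentile (adjusted p = 0.816). Only some of its probe sets were called there, and with their mean it was -1.20 and not called (adjusted p = 0.197). Col4a4, at 0.53 to 5.31 over the 12 arrays, was not tested.

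**Figure D4:**
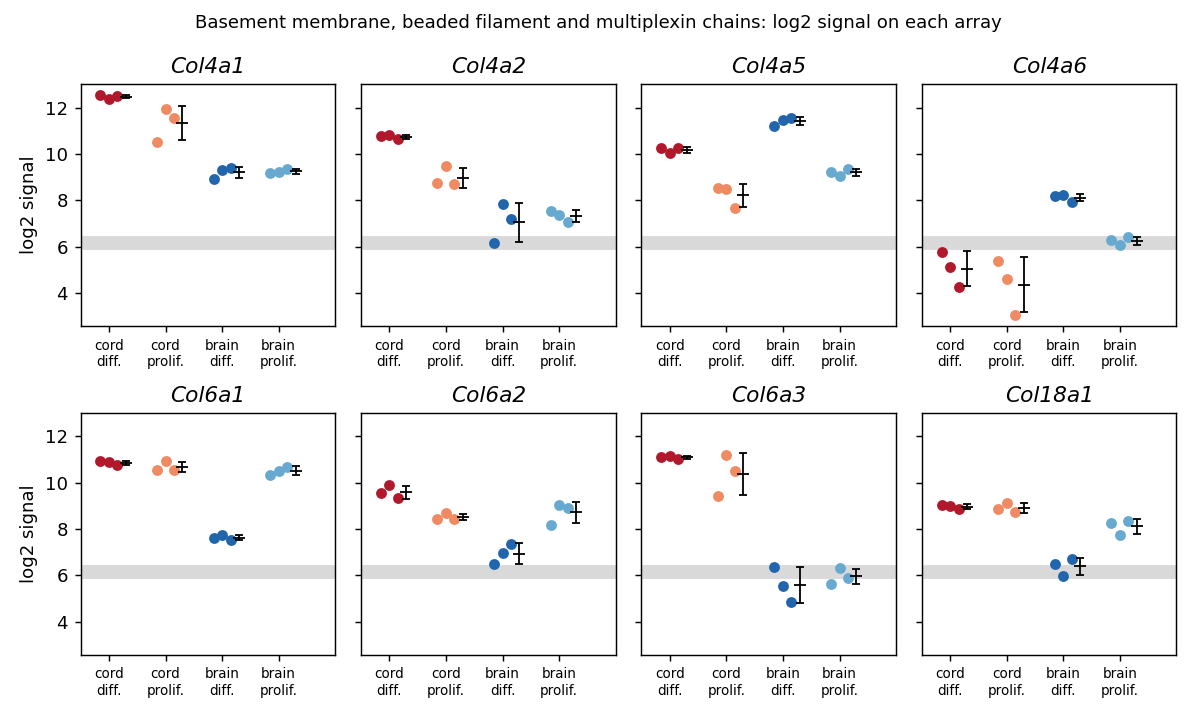
Log2 signal on each of the 12 arrays for 4 basement membrane chains, 3 beaded filament chains and Col18a1, with groups running from differentiated spinal cord to proliferative brain. Points are arrays, the black mark is the mean with its SD (n = 3), and the grey band spans the 40th percentiles of the arrays. Col4a5 and Col4a6 are highest in differentiated brain, while Col6a1, Col6a2 and Col18a1 are lowest there.

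Type VI collagen forms beaded filaments around cells and is built from Col6a1, Col6a2 and another chain such as Col6a3. In brain differentiation 2 of 4 tested type VI chains fell and none rose, where 28.5% and 24.1% of all tested genes did. In spinal cord differentiation 2 rose and none fell, where 20.9% and 22.6% did. Col6a1 read 7.61, 7.74 and 7.55 in differentiated brain cultures, against 10.32, 10.53 and 10.70 in proliferative brain cultures, a 7.36-fold fall (log2 change -2.88 ± 0.13, adjusted p = 2.49e-09). Spinal cord values were 10.93, 10.90 and 10.77 in differentiated cultures, against 10.54, 10.93 and 10.54 in proliferative cultures, and these overlapped (adjusted p = 0.255). The 3 differentiated brain arrays lay below all 9 others, and the responses differed by 3.08 ± 0.18 (adjusted p = 4.62e-08). Differentiated spinal cord exceeded differentiated brain 9.4-fold, and in proliferative cultures the log2 difference was 0.16 ± 0.13 (adjusted p = 0.382).

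Col6a2 read 9.58, 9.89 and 9.33 in differentiated spinal cord cultures, against 8.43, 8.69 and 8.44 in proliferative ones, a 2.11-fold rise (adjusted p = 0.00366). Brain values were 6.49, 6.98 and 7.37 in differentiated cultures, against 8.19, 9.04 and 8.93 in proliferative cultures, a 3.41-fold fall (adjusted p = 6.61e-05). Neither pair overlapped, and the responses differed by 2.85 ± 0.35 (adjusted p = 2.85e-05). Only some of the Col6a2 probe sets were called in spinal cord, and with their mean the rise there was 0.55 and not called (adjusted p = 0.127).

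Col6a3 read 11.11, 11.17 and 11.01 in differentiated spinal cord cultures, against 9.42, 11.22 and 10.49 in proliferative ones, and these overlapped. Brain values were 6.37, 5.53 and 4.86 in differentiated cultures, against 5.65, 6.31 and 5.91 in proliferative cultures, so every spinal cord array lay above every brain array. The spinal cord excess over brain was 45.6-fold in differentiated cultures (adjusted p = 1.36e-07) and 21.5-fold in proliferative cultures (adjusted p = 1.93e-06). With values set at the percentile the first was 4.77 on the log2 scale, and with the mean of the probe sets the differences were 4.01 and 3.33. Only some of the probe sets were called in proliferative cultures. Without the second proliferative spinal cord array, Col6a3 was called up in spinal cord differentiation (1.14, adjusted p = 0.0363) and the difference of the responses was called (1.51, adjusted p = 0.0366). That difference was also called without the first differentiated brain array (1.48).

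Col6a5, an alternative to Col6a3, read 6.29, 7.12 and 6.89 in differentiated spinal cord cultures, against 5.44, 3.44 and 4.55 in proliferative ones. Brain values were 4.93, 5.84 and 5.89 in differentiated cultures, against 4.09, 5.10 and 4.26 in proliferative cultures, and all groups but differentiated spinal cord were dim. The rise in spinal cord was at least 1.33-fold (adjusted p = 0.00594), and it was not called with values set at the percentile (adjusted p = 0.0934). Col6a6, at 2.62 to 5.58 over the 12 arrays, was not tested.

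FACIT collagens lie on the surface of fibrils and link them to their surroundings. In brain differentiation 5 of 7 tested FACIT chains rose and none fell, where 24.1% and 28.5% of all tested genes did. In spinal cord differentiation 2 rose and 2 fell, where 20.9% and 22.6% did. Type IX collagen, the FACIT of cartilage and the vitreous of the eye, is made of Col9a1, Col9a2 and Col9a3 products. Col9a3 read 9.35, 9.26 and 9.32 in differentiated spinal cord cultures, against 10.29, 10.05 and 10.24 in proliferative ones, a 1.84-fold fall (adjusted p = 0.00157). Brain values were 10.48, 10.38 and 10.36 in differentiated cultures, against 8.24, 8.02 and 8.93 in proliferative cultures, a 4.03-fold rise (adjusted p = 1.21e-06). None of the groups overlapped, and the responses differed by -2.89 ± 0.26 (adjusted p = 1.36e-06).

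Col9a1 read 3.27, 2.11 and 4.09 in differentiated spinal cord cultures, which were dim, against 5.67, 6.27 and 6.70 in proliferative ones. Brain values were 7.36, 7.31 and 7.45 in differentiated cultures, against 2.16, 4.59 and 4.88 in proliferative cultures, which were dim. Differentiated brain was at least 2.41-fold above proliferative brain (adjusted p = 0.00141), and differentiated spinal cord at least 2.17-fold below differentiated brain (adjusted p = 0.000367). In spinal cord the fitted change was -3.06 ± 0.73 (adjusted p = 0.0043), with no bound, and with values set at the percentile it was -0.23 and not called (adjusted p = 0.271). Without the first proliferative brain array the brain rise was 2.64 on the log2 scale. Proliferative spinal cord was at least 1.08-fold above proliferative brain (adjusted p = 0.0216), a call lost without the first proliferative brain array or the second or the third proliferative spinal cord array (adjusted p = 0.0785, 0.0602 and 0.0842) and with values set at the percentile (adjusted p = 0.0656). Col9a2, the remaining chain, lay between 5.61 and 7.34 on all 12 arrays and was called in none of the comparisons. Its log2 changes were -0.01 ± 0.46 in spinal cord and 0.38 ± 0.46 in brain differentiation. It was under the percentile on 1 array of each group but differentiated brain.

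Col12a1, a FACIT of tendon and healing tissue, read 10.72, 10.92 and 10.98 in differentiated spinal cord cultures, against 8.0, 8.07 and 7.66 in proliferative ones. Brain values were 8.26, 8.45 and 8.60 in differentiated cultures, against 7.24, 7.04 and 6.74 in proliferative cultures. No groups overlapped within a tissue. It rose 7.77-fold in spinal cord (adjusted p = 2.8e-08) and 2.69-fold in brain (adjusted p = 1.2e-05), and the responses differed by 1.53 ± 0.23 (adjusted p = 0.000172). In brain differentiation and between the proliferative groups only some of its 3 probe sets were called, and with their mean the difference between the proliferative groups was not called (adjusted p = 0.0582).

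Col14a1, a fibril-associated chain of skin and tendon, read 8.98, 8.80 and 8.87 in differentiated spinal cord cultures, against 7.63, 7.78 and 7.65 in proliferative ones. Brain values were 6.67, 6.46 and 6.53 in differentiated cultures, against 5.48, 5.07 and 5.00 in proliferative cultures, and no groups overlapped. It rose 2.29-fold in spinal cord (adjusted p = 0.000288) and at least 1.36-fold over the dim proliferative brain group (adjusted p = 7.65e-05). Differentiated spinal cord exceeded differentiated brain 5.03-fold, and proliferative spinal cord was at least 2.99-fold above proliferative brain. The other Col14a1 probe set gave 2.04-fold and at least 1.35-fold, and with the mean of both the log2 difference in differentiated cultures was 1.68, against 2.33 with the brighter one.

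Col16a1, found beside fibrils in skin and cartilage, read 9.66, 9.46 and 9.48 in differentiated brain cultures, against 7.67, 7.97 and 7.75 in proliferative brain cultures, a 3.32-fold rise (adjusted p = 9.99e-07). Spinal cord values were 10.44, 10.29 and 10.16 in differentiated cultures, against 9.95, 10.56 and 10.37 in proliferative cultures, with a log2 change of 0.00 ± 0.15 (adjusted p = 0.987). The Col16a1 responses differed by -1.73 ± 0.22 (adjusted p = 2.85e-05). Proliferative spinal cord exceeded proliferative brain 5.63-fold, and differentiated spinal cord exceeded differentiated brain 1.7-fold. Col22a1 lay between 5.95 and 6.95 on all 12 arrays and was called in none of the comparisons. It was under the percentile on 2 differentiated brain, 2 proliferative spinal cord and 1 differentiated spinal cord arrays. Col19a1, at 0.17 to 6.61, and Col20a1, at 0.60 to 4.66, were not tested.

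**Figure D5:**
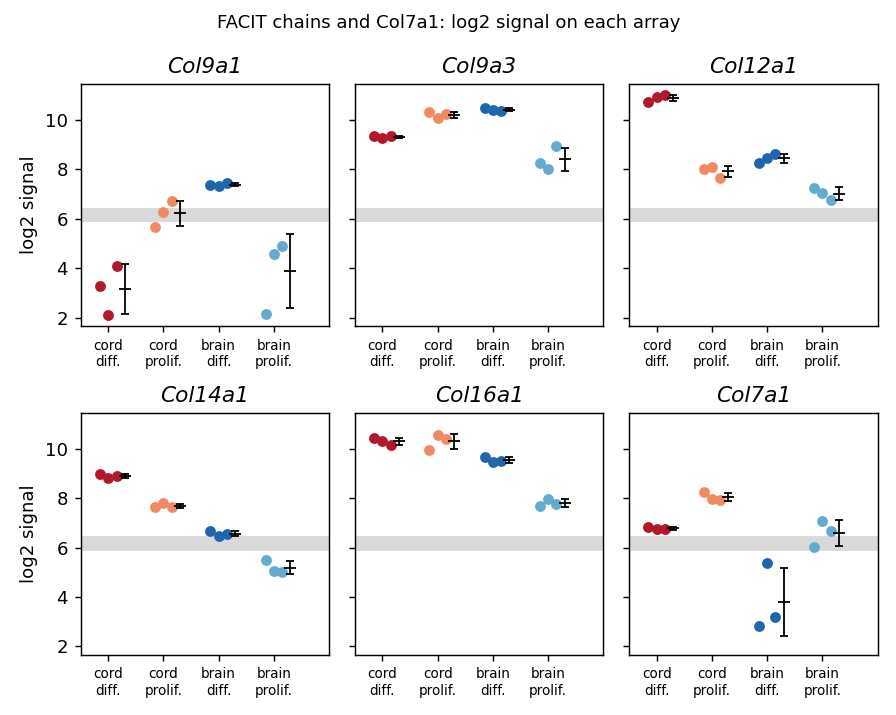
Log2 signal on each of the 12 arrays for 5 FACIT chains and Col7a1, with groups running from differentiated spinal cord to proliferative brain. Points are arrays, the black mark is the mean with its SD (n = 3), and the grey band spans the 40th percentiles of the arrays. Col9a1 and Col9a3 are highest in differentiated brain, Col12a1 and Col14a1 in differentiated spinal cord, and Col7a1 in proliferative spinal cord.

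The multiplexins Col15a1 and Col18a1 are basement membrane proteins with sugar side chains, and Col18a1 is the precursor of endostatin, an inhibitor of vessel growth. Col18a1 read 6.50, 5.98 and 6.69 in differentiated brain cultures, against 8.27, 7.75 and 8.36 in proliferative brain cultures, a 3.33-fold fall (adjusted p = 1.65e-05). Spinal cord values were 9.06, 8.98 and 8.88 in differentiated cultures, against 8.86, 9.13 and 8.73 in proliferative cultures, and these overlapped (adjusted p = 0.844). The responses differed by 1.80 ± 0.30 (adjusted p = 0.000301). With the mean of its 2 probe sets the brain change was -2.92, the difference of the responses 2.87 and the log2 difference between differentiated cultures 3.50, against 2.58 with the brighter one. Proliferative spinal cord exceeded proliferative brain 1.72-fold (adjusted p = 0.00942), a call lost with arrays centred on their medians (adjusted p = 0.0539) and with the mean of the probe sets (adjusted p = 0.0621).

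Col15a1 read 8.13, 8.57 and 8.37 in differentiated spinal cord cultures, against 8.0, 10.35 and 9.87 in proliferative ones. Brain values were 6.31, 5.22 and 5.47 in differentiated cultures, against 3.60, 4.32 and 6.80 in proliferative cultures. Every spinal cord array lay above every brain array, while the states overlapped in each tissue. The log2 difference between the tissues was 2.69 ± 0.71 in differentiated cultures (adjusted p = 0.00749) and 4.50 ± 0.71 in proliferative cultures (adjusted p = 0.000235). The proliferative difference was 3.85 without the first and 5.45 without the third proliferative brain array, and 5.20 without the first proliferative spinal cord array. With values set at the percentile, under which 2 of the 3 arrays of each brain group lay, the differences were 2.04 and 3.00. Neither differentiation change was called, but without the third proliferative brain array the rise in brain was 1.71 (adjusted p = 0.0256).

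Col7a1 forms the anchoring fibrils that hold skin epithelium to the dermis. It read 6.84, 6.73 and 6.75 in differentiated spinal cord cultures, against 8.23, 7.97 and 7.90 in proliferative ones. Brain values were 2.81, 5.39 and 3.21 in differentiated cultures, which were dim, against 6.04, 7.06 and 6.66 in proliferative cultures. Differentiated brain was at least 1.22-fold below proliferative brain (adjusted p = 0.000704) and differentiated spinal cord at least 1.39-fold above differentiated brain (adjusted p = 0.000464). With values set at the percentile neither was called (adjusted p = 0.18 and 0.0671), and without the second differentiated brain array the log2 values were -3.58 and 3.77. The spinal cord change of -1.26 ± 0.53 was not called (adjusted p = 0.0745), although the groups did not overlap. It was called without the first or the second differentiated brain array (adjusted p = 0.0449 and 0.00647), with a pseudocount of 64 and with values set at the percentile (adjusted p = 0.00118 and 0.000138). The call that proliferative spinal cord exceeded proliferative brain (adjusted p = 0.0451) was lost under median centring, quantile normalization and no filter (adjusted p = 0.0685, 0.088 and 0.0646). It was also lost in 8 of the 12 fits that leave out 1 array, with adjusted p up to 0.152 without the first proliferative brain array.

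Of 4 transmembrane chains, Col23a1 alone was tested. Its values were 7.31, 7.45 and 7.76 in differentiated spinal cord cultures, against 6.59, 6.21 and 6.06 in proliferative ones. Brain values were 5.89, 6.38 and 6.50 in differentiated cultures, against 5.67, 6.72 and 4.01 in proliferative cultures. The spinal cord groups did not overlap, but the log2 change of 1.21 ± 0.51 was not called (adjusted p = 0.0755), and it was called without the second or the third proliferative brain array (adjusted p = 0.0275 and 0.00802), which are in neither group but enter the estimate of the spread. It was also called with median centring, quantile normalization, a pseudocount of 64 and values set at the percentile (adjusted p = 0.0441, 0.0375, 0.011 and 0.000551). The same omissions and settings brought the difference between the differentiated groups (adjusted p = 0.0667) past the threshold, at adjusted p between 0.000389 and 0.0461. Without the second proliferative brain array the brain rise of 1.42 and the proliferative tissue difference of 1.45 were called too. Col25a1, a neuronal chain found in human amyloid plaques, read 4.46, 5.40 and 4.27 in differentiated spinal cord cultures, against 6.20, 7.43 and 7.0 in proliferative ones. Brain values were 3.35, 5.26 and 5.02 in differentiated cultures, against 4.90, 5.11 and 3.70 in proliferative cultures, and it was not tested. Col17a1, a chain of epithelial hemidesmosomes, was not tested, with 4.46, 6.09 and 5.77 in differentiated and 5.71, 5.38 and 5.34 in proliferative spinal cord, and 4.16, 5.04 and 6.44 in differentiated and 5.71, 5.69 and 4.06 in proliferative brain. Col26a1, a short chain named from testis and ovary, was not tested either, with 6.05, 6.31 and 5.62 in differentiated and 4.70, 4.91 and 5.51 in proliferative spinal cord, and 2.94, 5.72 and 2.75 in differentiated and 5.37, 2.71 and 5.39 in proliferative brain. Col13a1, at 0.11 to 5.63 over the 12 arrays, did not pass the filter.

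Enzymes and chaperones that modify and fold collagen chains were counted from a separate list, of which 19 of 21 genes were tested. In spinal cord differentiation 12 rose and 3 fell, where 20.9% and 22.6% of all tested genes did. In brain differentiation 3 rose and 7 fell, where 24.1% and 28.5% of all tested genes did. The largest rises in spinal cord were those of Fkbp10, a chaperone of the endoplasmic reticulum (2.16 ± 0.21), and P4ha2, a subunit of the enzyme that hydroxylates proline (2.15 ± 0.26). Colgalt2, which adds galactose to hydroxylysine, and Tmem38b, an ion channel of the endoplasmic reticulum, fell there (-2.95 ± 0.27 and -0.98 ± 0.31). In brain the largest falls were P4ha2 (-1.32 ± 0.26) and P4ha1 (-1.15 ± 0.24), while Colgalt2 (1.43 ± 0.27) and Plod1, a lysyl hydroxylase (0.89 ± 0.21), rose most. Differentiated spinal cord exceeded differentiated brain for 16 of the 19 and was lower for 2, where 22.3% and 22.4% of all tested genes were, with P4ha2 (3.88 ± 0.26) and Creb3l1, a transcription factor of secretory genes (3.25 ± 0.32), at the largest differences. In proliferative cultures 5 were higher and none lower in spinal cord, where 21.2% and 22.8% of all tested genes were, led by Colgalt2 (2.80 ± 0.27) and Creb3l1 (1.64 ± 0.32). The median log2 change was 0.62 in spinal cord and -0.13 in brain.

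Of 13 genes that trim propeptides or crosslink fibrils, 6 were tested. In each tissue 4 rose with differentiation and none fell. Over all tested genes 20.9% rose and 22.6% fell in spinal cord, and 24.1% rose and 28.5% fell in brain. In spinal cord Lox, the enzyme that crosslinks collagen through lysine (3.84 ± 0.26), and Pcolce, which enhances propeptide removal (2.75 ± 0.54), rose most. In brain Bmp1, the propeptide protease, rose by 1.80 ± 0.15, and differentiated brain was at least 1.56-fold above the dim proliferative brain group for Pcolce (adjusted p = 0.00341). Spinal cord exceeded brain for 5 of the 6 in both states. Bmp1 was lower in spinal cord in differentiated cultures (-0.61 ± 0.15), and no gene was lower there in proliferative cultures. Over all tested genes 22.3% were higher and 22.4% lower in spinal cord in differentiated cultures, and 21.2% and 22.8% in proliferative cultures. Among 5 tested of 11 collagen receptors, Ddr2, a receptor for fibrillar collagen, rose in spinal cord (2.97 ± 0.25) and in brain (1.35 ± 0.25). Ddr1, the related receptor, fell in spinal cord (-1.01 ± 0.10) and rose in brain (1.65 ± 0.10). Adgrg1, a receptor for type III collagen, fell in spinal cord (-1.64 ± 0.11), and Itgb1, the beta subunit of the collagen integrins, fell in brain (-0.23 ± 0.08).

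Markers of fibroblasts and meninges, a list of 15 genes with no collagen, were measured on the same arrays. Their summed linear signal lay between 61728 and 66843 in differentiated and between 17846 and 33754 in proliferative spinal cord cultures. The sums were 1427.7 to 1614.3 in differentiated and 1599.3 to 2232.3 in proliferative brain cultures. With spinal cord differentiation 11 of the 15 rose and none fell, where 20.9% and 22.6% of all tested genes did. In brain differentiation 4 rose and 4 fell, where 24.1% and 28.5% did, and the ranges of the sums overlapped. Spinal cord exceeded brain for 14 and was lower for 1 in differentiated cultures, against 22.3% and 22.4% of all tested genes. In proliferative cultures 11 were higher in spinal cord and none lower, against 21.2% and 22.8% of all tested genes. The part of fibroblasts and meninges in the collagen results was not tested.

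Markers of neurons, glia and microglia also differed between the groups. Of 9 neuron markers, 1 rose and 5 fell in brain differentiation, where 24.1% and 28.5% of all tested genes did. In spinal cord none rose and 6 fell, where 20.9% and 22.6% did. The neuron sums were 2403.4 to 2999.5 in differentiated and 9563.8 to 10381 in proliferative spinal cord cultures. In brain they were 7327.7 to 9504.6 in differentiated and 8265 to 15096 in proliferative cultures. The summed signal of 9 oligodendrocyte lineage markers lay between 48963 and 57144 in differentiated and between 55259 and 59611 in proliferative spinal cord cultures. It lay between 50818 and 60016 in differentiated and between 9455.9 and 11666 in proliferative brain cultures. Of these 9, 8 rose and none fell in brain differentiation, where 24.1% and 28.5% of all tested genes did. In spinal cord differentiation 1 rose and 5 fell, where 20.9% and 22.6% of all tested genes did. The difference of the responses was negative for 8 of the 9, against 21.2% of all tested genes. In proliferative cultures 8 of the 9 were higher in spinal cord and none was lower, where 21.2% and 22.8% of all tested genes were. In differentiated cultures 2 were higher and 4 lower, where 22.3% and 22.4% of all tested genes were. Olig2 was dim in differentiated spinal cord and Mog in proliferative brain cultures. Of 9 astrocyte markers, none of them dim in any group, 8 rose and none fell in brain differentiation. In spinal cord 5 of these astrocyte markers rose and 4 fell, beside the same shares of all tested genes. Their sums were 46774 to 56563 in differentiated and 23043 to 40811 in proliferative spinal cord cultures. In brain cultures the astrocyte sums were 96789 to 103590 in differentiated and 28089 to 35393 in proliferative ones. Between differentiated cultures 1 astrocyte marker was higher and 8 were lower in spinal cord, where 22.3% and 22.4% of all tested genes were. Between proliferative cultures 4 were higher and 3 lower, where 21.2% and 22.8% were. Of 7 tested microglia markers, 7 were higher in proliferative spinal cord than in proliferative brain, where 21.2% of all tested genes were. In differentiated cultures 3 were higher in spinal cord and none lower, where 22.3% and 22.4% of all tested genes were. The sums of the 9 measured were 2919 to 3172.9 in differentiated and 3261.7 to 6182.3 in proliferative spinal cord cultures, and 1476.9 to 1602.2 in differentiated and 501.61 to 679.05 in proliferative brain cultures. Cx3cr1 and Itgam were dim in all 4 groups. Of 7 tested Schwann cell markers, 3 rose and 2 fell in brain differentiation, where 24.1% and 28.5% of all tested genes did. In spinal cord 1 rose and 6 fell, where 20.9% and 22.6% did. The sums of the 8 measured were 4241.6 to 4682.8 in differentiated and 12946 to 15228 in proliferative spinal cord cultures. In brain they were 11920 to 12608 in differentiated and 9714.9 to 10496 in proliferative cultures. The part of these cells in the collagen results was not tested either.

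Of 10 endothelial markers measured, 8 were dim in both differentiated groups and 6 in both proliferative groups, among them Pecam1, Cldn5 and Vwf in all 4, and of 10 mural markers 5 or 6 were dim in each group. The signal of the Actb 3' probe set minus the 5' one, which reads RNA integrity, was 0.99 to 1.01 in differentiated and 0.69 to 0.99 in proliferative spinal cord cultures, and 0.73 to 0.81 in differentiated and 0.77 to 0.84 in proliferative brain cultures. For Gapdh the same measure was -0.08 to 0.06 in differentiated and -0.01 to 0.10 in proliferative spinal cord cultures. In brain cultures the Gapdh measure was -0.13 to 0.07 in differentiated and 0.08 to 0.13 in proliferative ones. The part of RNA integrity in the differences was not tested.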

How the data were processed

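RNA from 12 samples was hybridised to 12 Affymetrix rat arrays, 3 per group. The deposited values are log2 signals, which the submitters' processing notes tie to MAS5 and the affy package without versions. Turned back from log2, every array had a trimmed mean of 500 (2% cut at each end). No probe-level files were used, and every column belonged to 1 of the 12 samples.

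The log2 values were fitted as deposited with limma 3.58.1 in R 4.3.3 (group means, empirical Bayes with a trend, 8 residual degrees of freedom), after the filter at the 40th percentile on at least 3 arrays. Benjamini-Hochberg adjustment covered all 20834 tested probe sets at a threshold of 0.05. The fit was tested on simulated data with known changes. The number of arrays limits the precision. Symbols came from the platform annotation: 20826 probe sets carried 1 symbol, 436 several and 9780 none, and the Entrez IDs of all 41 collagen genes matched a current rat gene of the same symbol.

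Array values are printed for the 3 chains of each class with the highest mean and the 5 with the largest called change in each direction of each comparison of 2 groups. The members and all lists were chosen with earlier results of these data known. Alternatives were median centring, quantile normalization, a pseudocount of 64, no filter, the replicate number as a block, the mean of a gene's probe sets and each array left out. Setting values under an array's percentile at that percentile was chosen after seeing the data.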

Additional observations from a re-analysis of the deposited data

Results flagged for a closer look

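For 14 chains the response to differentiation differed between spinal cord and brain by limma's test of the difference itself, adjusted over all tested probe sets. The values are the log2 change of 3 differentiated against 3 proliferative arrays in spinal cord minus that in brain. Positive differences were 4.12 for Col8a2, 3.08 for Col6a1, 2.85 for Col6a2, 2.62 for Col1a1, 2.54 for Col5a1, 2.06 for Col4a2, 1.80 for Col18a1, 1.53 for Col12a1, 1.28 for Col3a1 and 1.17 for Col4a1. Negative differences were -6.55 for Col9a1, -2.89 for Col9a3, -1.73 for Col16a1 and -1.25 for Col5a3. Adjusted p ran from 4.62e-08 for Col6a1 to 0.019 for Col4a1. The sizes for Col8a2, dim in both brain groups, and for Col9a1, dim in differentiated spinal cord and proliferative brain, are fitted values below the dim limit, and the Col9a1 difference was -1.49 with values set at the percentile.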

How the results depend on the processing

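Of 150 values for single chains, 30 chains in 5 comparisons, 94 were called, and 77 of these kept their direction and call under all alternatives and with each array left out. One called value changed sign: Col4a6 between proliferative cultures, -1.90, was 0.05 with values set at the percentile. Under that alternative 2 uncalled differences of the responses also changed sign, Col14a1 from -0.17 to 0.75 and Col7a1 from 1.53 to -0.92. That alternative removes differences below an array's own percentile but keeps those between the percentiles of the arrays, which lay between 5.91 and 6.41. This construction bears on all 3. The count of chains lower in proliferative spinal cord than in proliferative brain was 2, and 1 with the mean of probe sets and 1 with values set at the percentile. The count with a negative difference of the responses was 4, and 7 with a pseudocount of 64 and 7 with values set at the percentile, and it ran between 4 and 7 when single arrays were left out, with 7 without the first proliferative spinal cord array. The cause was not tested. The fold of a called value moved by over 1.5 times for 25 values with a pseudocount of 64, for 20 with values set at the percentile and for 9 with the mean of probe sets. The other counts over all tested chains stayed within 1.5 times. Counts within a class are small and moved more: the type VI chains that rose in spinal cord were 2, and 1 with the mean of probe sets or with values set at the percentile, and the FACIT chains that fell there were 2, and 1 with values set at the percentile. Leaving out single arrays lost 7 calls, and the count of chains higher in proliferative spinal cord, 21, then lay between 17 and 20. Median centring moved the median of all genes by -0.21 between proliferative cultures, -0.15 in brain differentiation and 0.23 in the difference of the responses, and gave 17 chains higher in proliferative spinal cord. Replicate numbers did not pair the arrays, since the deviations of arrays with the same number correlated between -0.119 and 0.0479. With the replicate number as a block that count was 20, and the other collagen counts were those without it. Signals near background limit Col4a6, Col6a5, Col7a1, Col8a1, Col8a2, Col9a1, Col9a2, Col11a2, Col14a1, Col15a1, Col22a1, Col23a1 and Col27a1. They also limit the tissue differences of Col1a1, under the percentile on 2 proliferative brain arrays, and of Col6a3, under it on 2 differentiated brain arrays. With a pseudocount of 64 the proliferative difference of Col1a1 was 3.54 and the differentiated one of Col6a3 was 4.30 on the log2 scale.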
